A study of Mus musculus with 28 samples.

Results

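The Snail genes Snai1, Snai2 and Snai3 and the Zeb genes Zeb1 and Zeb2 encode zinc-finger repressors that drive the epithelial-mesenchymal transition. These 5 genes, of 21887 protein-coding genes in the GRCm38 gene table, were taken by name. Acetylation of histone H3 at lysine 27 (H3K27ac), which accompanies active regulatory DNA, was read at each gene and within 150 kb of it. Of the 125826 intervals in the deposited list, 140 lay there, namely 36 at Snai1, 10 at Snai2, 32 at Snai3, 24 at Zeb1 and 38 at Zeb2.

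The material was cranial neural crest sorted from E10.5 embryos of WT genotype, when this crest has settled in the facial prominences and arches. There was 1 library for each of 4 populations (FNP, Mx, Md, PA2 in the labels), and the intervals were called on their merged reads. The list has no replicates and its depth is unknown, so every value below describes the pool, no test between samples could be made, and no population can be told from another. The other 24 of the 28 libraries of the series, which include Ezh2cKO and HoxA2OE genotypes, E8.5 progenitors, other antibodies and inputs, were not analysed here.

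Neural crest cells leave the neural tube by an epithelial-mesenchymal transition, and the facial mesenchyme they form keeps some of the factors involved. Snail proteins repress epithelial genes such as Cdh1 through E-boxes of the form CACCTG, using a short amino-terminal SNAG domain that recruits histone demethylase and deacetylase complexes. Zeb proteins bind the same E-boxes with a zinc-finger cluster at each end and recruit CtBP. The miR-200 family of microRNAs represses Zeb mRNAs, and Zeb proteins repress miR-200 genes in turn. In the mouse, Snai1 is needed at gastrulation, and Snai2 marks migrating crest and mesenchyme. Loss of Zeb1 causes skeletal and palate defects in the mouse, and loss of Zeb2 in the crest affects crest-derived tissues. Snai3, also called Smuc, was described in muscle and thymus.

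The RefSeq promoter table of GRCm38.p6 held Snai1 and Zeb2. The 250 bases before the start of Snai1 (chr2:167537945-167538194, plus strand) are shown because the intervals at Snai1 begin only past its start. Those before the outer start of Zeb2 (chr2:45117443-45117692, minus strand) and before an internal start of it (chr2:45110278-45110527, minus strand) are shown because the interval with the highest score over Zeb2 lay at the internal one. Capitals mark CACCTG or CAGGTG, the same E-box on either strand.
Snai1: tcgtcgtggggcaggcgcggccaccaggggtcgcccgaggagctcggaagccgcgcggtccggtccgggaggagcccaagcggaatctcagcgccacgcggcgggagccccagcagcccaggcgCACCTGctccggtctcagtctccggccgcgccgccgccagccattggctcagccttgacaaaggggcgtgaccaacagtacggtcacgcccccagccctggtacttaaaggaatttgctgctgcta
Zeb2, outer start: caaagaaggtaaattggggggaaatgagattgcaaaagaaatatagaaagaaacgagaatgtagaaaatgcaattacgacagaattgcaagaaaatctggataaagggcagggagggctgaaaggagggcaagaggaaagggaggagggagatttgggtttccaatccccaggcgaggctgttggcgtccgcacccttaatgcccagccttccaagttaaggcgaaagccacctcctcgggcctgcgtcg
Zeb2, internal start: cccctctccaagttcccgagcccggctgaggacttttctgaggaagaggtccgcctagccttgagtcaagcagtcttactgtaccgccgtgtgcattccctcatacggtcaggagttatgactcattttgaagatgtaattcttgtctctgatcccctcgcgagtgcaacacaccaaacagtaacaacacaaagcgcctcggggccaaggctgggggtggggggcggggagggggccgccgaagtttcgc

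The Snai1 stretch held 1 such E-box, whose first base lay at position -126 from the start, and both Zeb2 stretches held 0. Among 32851 promoters of the table, 17.2% had this E-box in the same 250 bases. The match is a run of letters and not a measured binding site. Over the whole 300 bases of each promoter, the ratio of observed to expected CpG was 0.925 at Snai1, 0.509 at the outer Zeb2 start and 0.690 at the internal one, against a median of 0.384. Snai1 thus had more CpG than 89.2% of promoters, and the internal Zeb2 start more than 70.2%.

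H3K27ac stood at an end of Snai1, Snai2, Zeb1 and Zeb2, and was not called at Snai3. An interval within 1 kb of either annotated gene end was present for 4 of the 5 genes, beside 65.0% of all protein-coding genes. With a score of at least 100 the count was again 4, beside 61.2%. Ends in place of starts were used because the reference gives a direction for Snai1 and Zeb2 only. The score of an interval is the caller's value, by convention 10 times the negative log10 of its q-value, and grows with reads. The best-scored end interval had a score of 3850 at Zeb1, 1307 at Snai2, 921 at Snai1 and 755 at Zeb2, against a median of 2494 over the 14235 genes with one. Zeb1 stood above 65.7% of these genes (ties counted equally to either side), Snai2 above 34.3%, Snai1 above 28.8% and Zeb2 above 25.9%. With this window the best end interval of Zeb1 was on the upper side of the distribution, and those of the other 3 were on the lower side. The place of Zeb1 turned with a window of 0.5 kb, which leaves its score at 899, above 27.4% of marked genes (median 2538), and with it all 4 were on the lower side.

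Widths gave another order. The Zeb1 interval spanned 1534 bp, wider than 94.8% of the best end intervals, whose median width was 810 bp. The Snai1 interval spanned 1026 bp (above 69.7%), that of Snai2 728 bp (above 41.1%) and that of Zeb2 511 bp (above 20.9%). With the window of 0.5 kb, the Zeb1 width was 416 bp, above 14.3% of marked genes (median 815 bp), and the Snai1 width was 603 bp, above 27.6%. All 4 were then narrower than the median. With the window of 1 kb, an end interval of at least 1 kb in width, present at 21.1% of protein-coding genes, was found at Zeb1 and Snai1. At all 4 genes the signal was split into neighbouring pieces. With gaps of at most 1 kb closed, Zeb1 spanned 2151 bp, Zeb2 1769 bp in 3 pieces, Snai1 1643 bp and Snai2 1614 bp, against a median of 1250 bp over marked genes. All 4 were then above the median, from 76.3% of marked genes at Snai2 to 92.7% at Zeb1. The merged Snai1 stretch, from 167543004 to 167544646, lay wholly past the 3′ end of the gene and not at its start.

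**Figure D1:**
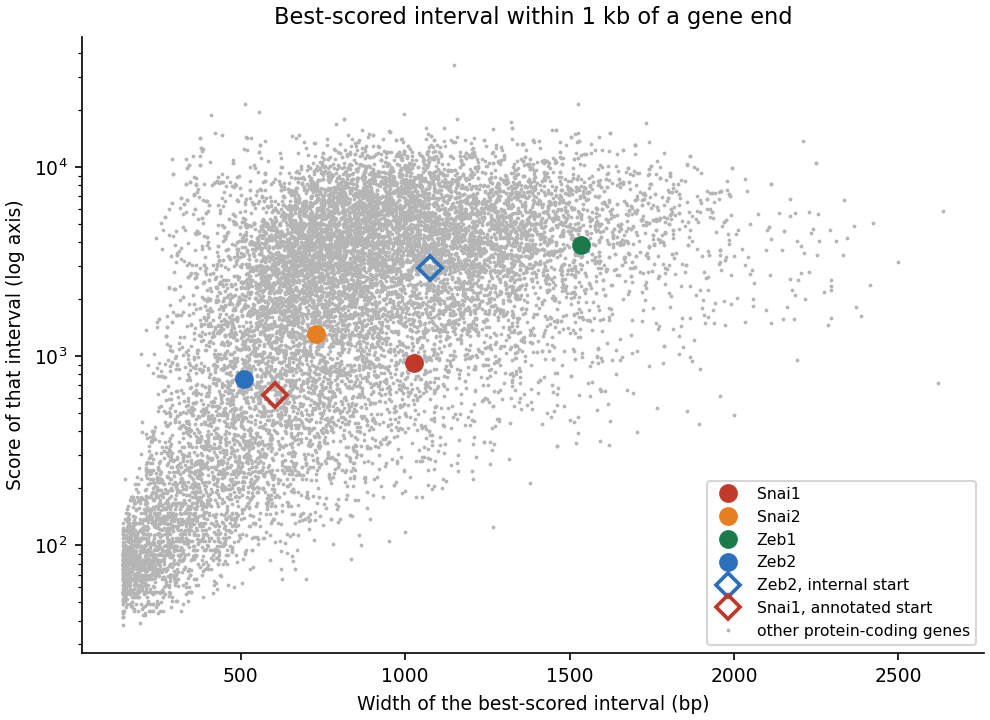
Width in bp (x axis) against score (y axis, log scale) of the best-scored interval within 1 kb of an end of each gene with one. Filled circles are Snai1, Snai2, Zeb1 and Zeb2, open diamonds the best interval at an annotated start of Zeb2 (internal start, score 2941) and Snai1 (score 621), and grey points other protein-coding genes. Zeb1 lies above 65.7% of marked genes in score and above 94.8% in width. With the window of 0.5 kb, not drawn, Zeb1 is above 27.4% and 14.3%. Zeb2 reaches the middle of the cloud only at its internal start. The cloud shows gene ends, while the diamonds show annotated starts.

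Snai1, the family member that starts the transition at gastrulation, lies on chromosome 2 from 167538195 to 167542814, on the plus strand, and is 4.62 kb long. Its start was not inside an interval. The nearest one began 88 bp downstream (167538283 to 167538508, score 150, 226 bp), and the next, inside the gene, had a score of 621 and 603 bp. Weaker intervals followed in the gene, with scores of 293 and 123. The strongest lay past the 3′ end, where an interval with a score of 391 began 190 bp beyond the gene and one with a score of 921 and 1026 bp began 807 bp beyond it (167543621 to 167544646). H3K27ac at Snai1 was therefore a run of 7 intervals over 8.71 kb, with its peak score after the gene and not at its start. Taken at the annotated start alone, with the score of 621, Snai1 stood above 19.8% of the 11458 genes marked at a start in the promoter table (65.5% of its protein-coding genes), whose median was 2748.

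Snai2, also called Slug, lies on chromosome 16 from 14705852 to 14709395 and is 3.54 kb long. A pair of intervals framed its lower-coordinate end. One had a score of 632 and 753 bp (14704994 to 14705746), the other a score of 1307 and 728 bp (14705880 to 14706607). The end base of the gene fell in the gap between them, 28 bp from the second. Among 21263 annotated starts of protein-coding genes in the promoter table, 13.2% lay in such a gap of at most 500 bp, 40.4% inside an interval, 11.4% elsewhere within 1 kb of one, and 35% had none within 1 kb. No interval was called within 1 kb of the other end of Snai2.

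Zeb1, a repressor of epithelial genes also called deltaEF1, lies on chromosome 18 from 5591327 to 5775468 and is 184 kb long. The interval with the highest score within reach lay 564 bp inside its lower-coordinate end (5591891 to 5593424). A smaller one with a score of 899 and 416 bp covered the end base itself, and none lay at the other end. The long non-coding gene Gm10125 overlaps this end of Zeb1 from 5491501 to 5592437, so signal of the pair cannot be told apart there.

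Zeb2, whose human counterpart is mutated in Mowat-Wilson syndrome, lies on chromosome 2 from 44983512 to 45117442, on the minus strand, and is 134 kb long. The promoter table lists 4 starts for it. The outer start at 45117442 was covered by an interval with a score of 755 and 511 bp, and a second with a score of 506 and 490 bp lay just inside the gene. The starts at 45113279 and 45113253 had no interval within 1 kb. The internal start at 45110277, 10 bp from the edge of the interval that covered it, had a score of 2941 and 1076 bp (45109212 to 45110287). At that start Zeb2 stood above 52.5% in score and 72.2% in width of the 11458 genes marked at a start. At its gene ends it stood above 25.9% and 20.9% of the 14235 genes marked at an end, a different background. The antisense gene Zeb2os runs from 45111138 to 45114087, with an end within 1 kb of this interval, so the internal start of Zeb2 and that end of Zeb2os cannot be told apart.

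Snai3 lies on chromosome 8 from 122454204 to 122460809 and is 6.61 kb long. No interval lay over it. The nearest, with a score of 111 and 382 bp, was 4236 bp away, within 1 kb of an end of the next gene, Rnf166. Of all protein-coding genes, 73.1% had an interval somewhere over the gene, and 23.0% had none over it or within 4 kb. Of the 5741 genes no more than 2 times longer or shorter than Snai3, 64.1% had an interval at an end. The absence at Snai3 did not extend to its surroundings, where 14 intervals stood at ends of other protein-coding genes. Scores were 9433 at Cdt1, a DNA replication licensing factor, 7429 at Zc3h18, 4104 at Mvd, an enzyme of sterol synthesis, 3672 at Rnf166 and Ctu2, which share an interval, and 3043 at Piezo1, a mechanosensitive channel. Without depth or a control, a weak signal at Snai3 under the caller's limit cannot be told from none.

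**Figure D2:**
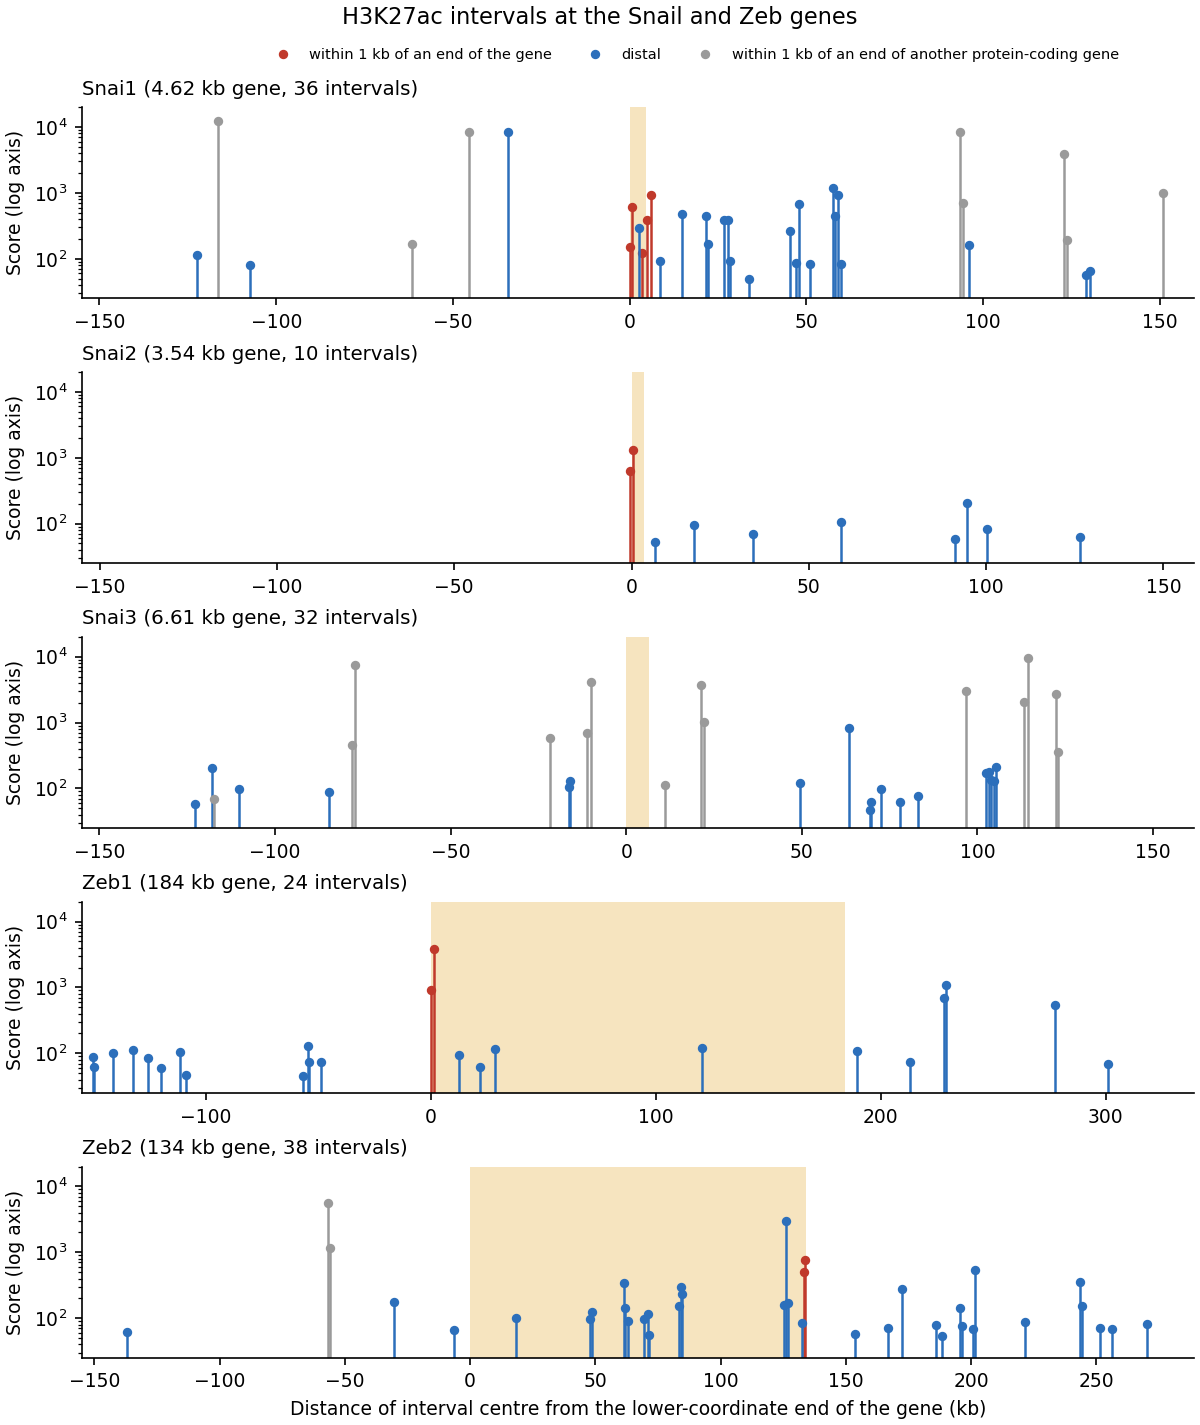
Each panel shows the intervals of 1 gene by the distance of their centre from its lower-coordinate end (x axis, kb) and their score (y axis, log scale), with the gene shaded. Red marks intervals within 1 kb of an end of the gene, blue distal intervals and grey intervals at ends of other protein-coding genes. Snai3 has no interval over it, Snai2 has none on its lower side beyond the end pair, and Zeb2 has 18 over the gene.

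Distal intervals, those more than 1 kb from every end of a protein-coding gene, separated the 5 genes further. Zeb2 had 34 of them, Snai1 23, Zeb1 22, Snai3 18 and Snai2 8, counting the gene and 150 kb on either side. Over all protein-coding genes the median was 13 (quartiles 6 and 22). Zeb2 stood above 93.0% of genes and was the only one of the 5 among the 10.0% of genes with 31 or more. Snai1 stood above 77.8%, Zeb1 above 75.7%, Snai3 above 65.4% and Snai2 above 31.7%. When each distal interval was given to its nearest gene only, Snai3 had 0 (above 21.6% of genes) and Snai2 had 7 (above 83.1%), so both changed sides of the median. With scores of at least 100 the number among the top 10% was 0, and Zeb2 had 17 such intervals.

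Gene length entered these counts. In the flanks alone, Zeb2, Zeb1 and Snai3 each had 18, Snai1 22 and Snai2 8, against a median of 12, and none was among the top 10%. The body of Zeb2 held 16 distal intervals. This was above 88.2% of the 3096 genes no more than 2 times longer or shorter, whose median was 5. Zeb1 is longer, yet its body held 4, above 28.6% of 2271 genes of like length, whose median was 8. Snai1 had 1 in its body, above 93.6% of 4728 genes of like length, whose median was 0, and the bodies of Snai2 and Snai3 had 0. A stretch of 91.6 kb inside Zeb1, from 5620197 to 5711843, had no interval at all.

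**Figure D3:**
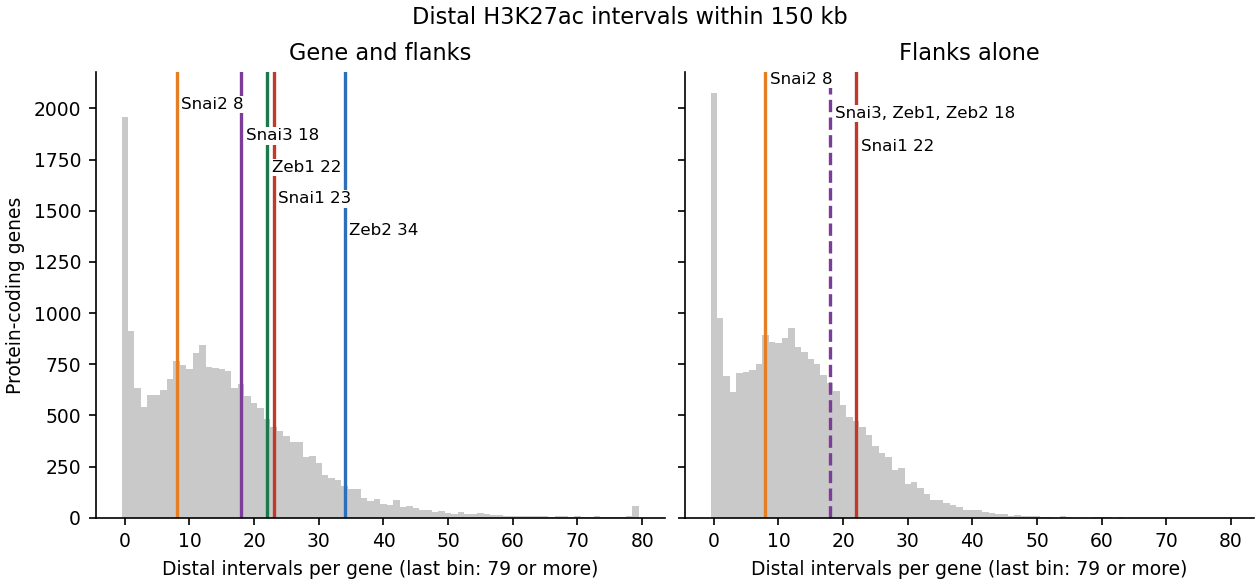
Number of distal intervals per protein-coding gene (x axis) and number of genes with that count (y axis), for the gene with 150 kb on either side (left) and for the flanks alone (right). Vertical lines mark the 5 genes. Zeb2 lies apart at 34 on the left and with Zeb1 and Snai3 at 18 on the right.

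The body of Zeb2 held its distal intervals in small groups. Runs with gaps of at most 5 kb began at 45031460 with 2 intervals, at 45044630 with 3 and a top score of 345, at 45052790 with 3 and a top score of 114, and at 45066781 with 3 and a top score of 302. The run of 3 at the internal start, from 45108667 to 45110628, held the highest score of 2941. With intervals at annotated starts left out as well, Zeb2 had 31 distal intervals in place of 34. Beyond the outer start lay 15 distal intervals. Their median score was 78, and the highest was 535, in an interval 67.3 kb away (45184789 to 45185585). On the other side, towards Gtdc1, there were 3. Gtdc1 is the only other protein-coding gene within reach and had an end score of 5604.

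At Snai1 the distal intervals lay mostly on 1 side. There were 19 beyond the 3′ end and 3 before the start, and 12 of the 19 lay within 50 kb. Runs of them stood at 167559356 to 167566767 (5 intervals, top score 444), at 167583062 to 167589413 (4 intervals, top score 690) and at 167595475 to 167598134 (4 intervals, top score 1197). The last run, 52.7 kb beyond the gene, had the interval with the highest distal score on that side, 482 bp wide. All 3 runs lie inside the long non-coding gene Gm11476 (167553312 to 167607850), and the second also lies inside Gm31619 (167571285 to 167589483). End scores of these genes were 474 and 84. Of the 3 intervals before Snai1, one with a score of 8463 lay over an annotated start of Rnf114, at 167503443, which lies inside the outer ends of that gene. Distal intervals of Snai1 had a median width of 379 bp and a median score of 166, against 246 bp and 99 over all 104856 distal intervals.

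The surroundings of Snai2 were the sparsest. Its 8 distal intervals all lay past the 3.54 kb gene on the higher-coordinate side, with a median score of 77 and a top score of 204, in an interval 90.8 kb away (14800214 to 14800604). On the other side no interval was called for 198 kb, back to one with a score of 82 that ended at 14507215. Of genes with an end interval, 4.76% had a flank of 150 kb that was empty beyond the first 1 kb. The only other protein-coding gene within reach, LOC115488637, had no interval at an end. Snai2, with 8 distal intervals, had 1 such neighbour, Snai1, with 23, had 6, and Snai3, with 18, had 13. The order was not kept by the Zeb genes, since Zeb1, with 22, had 0 and Zeb2, with 34, had 1. A relation between distal intervals and neighbours was not tested.

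Around Zeb1, 12 distal intervals lay on the lower-coordinate side, with scores from 45 to 131, of which 8 were more than 100 kb away. Of the 6 on the other side, a pair had scores of 693 and 1093 (5818957 to 5820595, 43.5 kb beyond the gene) and another had 540 at 93.1 kb. No other protein-coding gene lay within reach. Scores of distal intervals at Zeb1 had a median of 91 and at Zeb2 of 100, close to the 99 of all distal intervals. Those of Snai3 had a median of 114, and 11 of the 18 lay between 50 and 100 kb on the higher-coordinate side, over and just past Piezo1. Of these, the highest score was 827, in an interval 1522 bp wide inside Piezo1 (122516922 to 122518443). Those just past Piezo1 all lie inside the long non-coding gene Gm34847 (122556348 to 122559608), which had an end score of 211.

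Genes of the same pathway were read in the same way, with 65.0% of all protein-coding genes marked at an end as the background. The median score of all genes so marked was 2494. Co-repressors of Snail and Zeb proteins were marked in 14 of 14, with a median score of 5152. The highest were Ctbp1, the co-repressor bound by Zeb proteins, with 11466, and Kdm1a, the demethylase bound by the SNAG domain, with 11174. Hdac2, a deacetylase of the same complexes, had 9141. Regulators of Snail protein were marked in 9 of 9, with a median score of 5473. The highest was 18825 at Mdm2, a ubiquitin ligase gene, and Gsk3b, a kinase that marks Snail for breakdown, had 5473. Fbxl14, another ubiquitin ligase gene, had 12079. All members of both lists scored above Snai1 and Zeb2 at their gene ends, and the lists hold widely used genes. The end scores of 3 of the 4 marked factors were below the lowest of the co-repressors, 1778 at Sin3a, and Zeb1 was above it with the window of 1 kb. The internal start of Zeb2, which is not a gene end and so was not counted here, had a score of 2941, above that of Sin3a.

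Mesenchymal genes were marked in 15 of 15 with a median score of 1702, below the 2494 of all genes marked at an end. Mmp2, a matrix protease, had 5103, Fn1, which encodes fibronectin, 5023, and Cdh2, the N-cadherin gene, 3286. Vim, which encodes vimentin, had 1752. The lowest were Pdgfra, a growth factor receptor gene, with 137, Tnc, a matrix gene, with 268, S100a4 with 314, Sparc with 417 and the collagen gene Col1a1 with 509. Epithelial genes that these factors repress were marked in 12 of 16, with a median score of 236. The unmarked ones were Cdh1, Cldn4, Crb3 and Tjp3. Patj, a polarity gene with 22 intervals over it, had the highest score of 5413, and Epcam had 439. Opponents of the transition were marked in 6 of 8 with a median score of 269. Grhl2, an epithelial regulator, had 1367, and Esrp1 and Grhl3 had no interval at an end. Cdh1, the E-cadherin gene, held 3 intervals inside it. The epithelial genes overlap with the markers of epithelium given below.

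Of the 10 microRNA genes of this pathway, 9 are shown by their mature sequences, since a shared seed (bases 2 to 8, in capitals) sets which messages they can pair with, and Mir34c is named only. The 5 microRNAs of the miR-200 family carry 2 seeds, and miR-34a and miR-34b share 1.
mmu-miR-200b-3p: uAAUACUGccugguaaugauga
mmu-miR-200c-3p: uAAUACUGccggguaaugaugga
mmu-miR-429-3p: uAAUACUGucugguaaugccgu
mmu-miR-200a-3p: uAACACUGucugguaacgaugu
mmu-miR-141-3p: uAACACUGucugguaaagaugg
mmu-miR-205-5p: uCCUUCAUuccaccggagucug
mmu-miR-203-3p: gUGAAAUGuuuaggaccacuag
mmu-miR-34a-5p: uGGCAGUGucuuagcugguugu
mmu-miR-34b-5p: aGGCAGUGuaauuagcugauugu

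Of the 10 microRNA genes listed, 4 had an interval within 1 kb, beside 21.7% of 1228 microRNA genes. The miR-200 genes had only weak intervals close by. On chromosome 4, Mir200a, Mir200b and Mir429 had their nearest interval, with a score of 60, at 3.33 kb from Mir429. On chromosome 6, an interval with a score of 122 lay 684 bp from Mir200c and 1089 bp from Mir141. The highest score within 10 kb of that pair was 4519. The nearest to Mir205 was 6.18 kb away, with a score of 91. By contrast, an interval with a score of 2156 and 809 bp covered Mir203, whose product can pair with Snai2 messages in human cells. One with a score of 1248 and 697 bp covered Mir34b and lay 249 bp from Mir34c. Mir34a had none within 1 kb. An interval near a hairpin is not evidence that the microRNA was made, and a start of the primary transcript elsewhere was not examined.

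**Figure D4:**
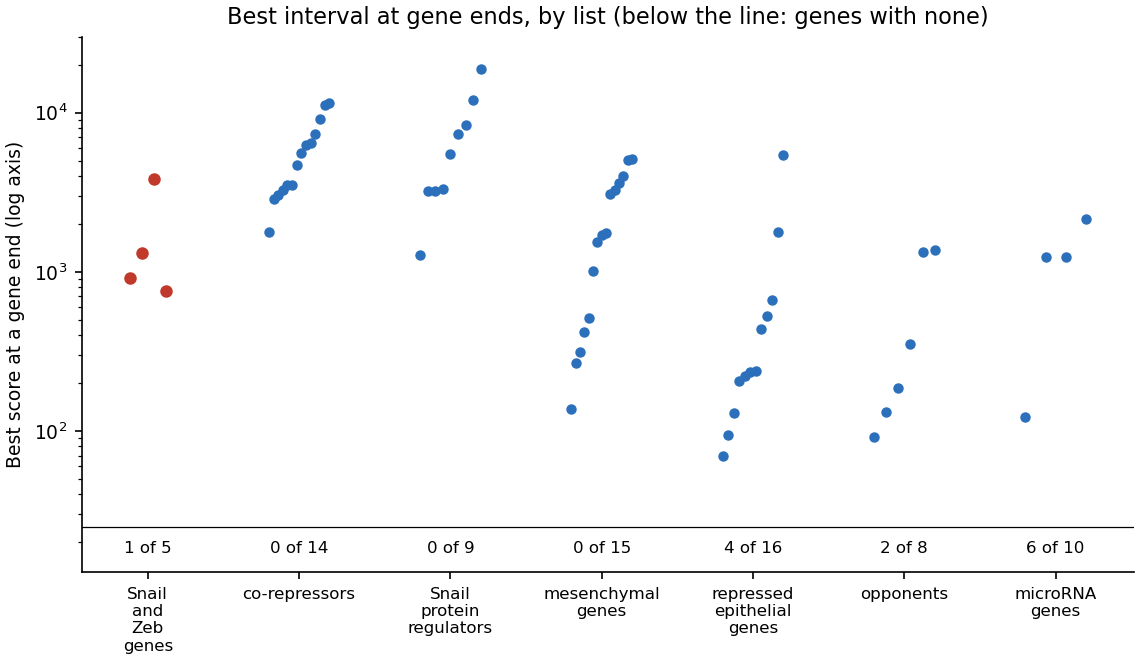
Best score at a gene end (y axis, log scale) of each gene with an interval there, for the Snail and Zeb genes (red) and 6 lists of their pathway (blue). The count under the line is the number of genes with no interval at an end, which is 1 of 5 for the Snail and Zeb genes and 6 of 10 for microRNA genes. The co-repressors sit above 3 of the 4 marked factors at gene ends. The internal start of Zeb2, with a score of 2941, is not drawn.

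Markers of other cell types that a sorted fraction can hold were read too, since an interval in the pool carries no cell type. Crest and mesenchyme markers were marked in 14 of 15 with a median score of 1394, below the 2494 of all genes marked at an end. A score of at least 100 was reached by 12 of them, and the lowest were Sox10 with 50 and Prrx1 with 87. Only Tfap2a lacked an interval at an end, though 8 lay over the gene. Epithelial markers were marked in 5 of 12 (median score 234), endothelial in 9 of 10 (121), blood in 3 of 9 (1480), neuronal in 5 of 8 (258) and muscle in 5 of 7 (339). The endothelial share (90%) was near the crest share (93.3%), and both were above the 65.0% of all protein-coding genes. The shares of neuronal (62.5%) and muscle markers (71.4%) lay close to 65.0%, and those of epithelial (41.7%) and blood markers (33.3%) below it. The defining genes Krt5, Krt14, Hba-a1, Hbb-bt and Myod1 had no interval over them. Zeb1 and Zeb2 are also known in endothelium and neurons, and the part of such cells in the intervals at these genes was not tested.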

How the data were processed

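Per the text deposited with the list, the authors merged the reads of the 4 wild-type E10.5 H3K27ac libraries and called intervals once with MACS2 2.1.3.3. Settings were no fragment model, shift 0, extension to 141 bp, all duplicates and a q-value cutoff of 0.001, and the text names no control. Bowtie 1.1.1, bcl2fastq 2.17 and build GRCm38 (mm10) are listed, per the submitters' processing notes. The deposited score is the authors' value for each interval; its lowest value is 31. Kept duplicates and a missing control can let repeated sequence enter as high scores.

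Starts, ends and strands came from RefSeq tables of GRCm38.p6. The planned use of 5′ ends was replaced by either gene end, since direction was known for Snai1 and Zeb2 only. Per-gene counts (Python 3.11.15, pandas 2.3.3) were tested on simulated intervals. Ranks are among 21887 protein-coding genes. Members and lists were chosen with earlier results of these data known. Named genes are the 5 members, their neighbours, and, of each pathway list, those among the highest-scored and the unmarked ones; other list and marker genes were chosen after their values were seen.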

Additional observations from a re-analysis of the deposited data

How the results depend on the processing

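The number of the 5 genes with an interval at an end was 4 with windows of 0.5 kb (61.5% of all genes) and 2.5 kb (70.8%), with scores of at least 100 (61.2%) and in the higher-scored 50% of intervals (60.5%). It was 2 when an interval had to cover the end base itself (Zeb1 and Zeb2, beside 32.6% of all genes), and 2 of 2 at annotated starts (65.5%), which the table gives for 2 of them. The best end score of Zeb1 was 899 in place of 3850 with the window of 0.5 kb and at the end base. Against all 49943 annotated genes the background was 43.7%.

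Distal counts moved more. The number of these genes in the top 10% was 1, but 2 with flanks of 50 kb and with each interval given to its nearest gene. It was 0 with flanks of 200 kb, with gene ends kept, with scores of at least 100, for flanks alone and for covered bases. Zeb2 had the highest value of the 5 in 11 of 14 settings, not with flanks of 200 kb (Zeb1), flanks alone or covered bases (both Snai1). Snai2 had the lowest or tied lowest in 13, not with the nearest gene only (Snai3). Percentiles ran from 66.8 to 89.8 for Snai1, 16.5 to 83.1 for Snai2, 21.6 to 79.9 for Snai3, 55.7 to 94.2 for Zeb1 and 72.5 to 98.1 for Zeb2. The high ends for Snai2, Zeb1 and Zeb2 came with the nearest gene only, and the cause was not tested. With annotated starts left out as well, an alternative chosen after seeing the data, Zeb2 kept 31 and Snai1 20.

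At annotated starts, mesenchymal genes counted 9 of 9 in the table and opponents of the transition 3 of 4; the smaller number of genes in the table lowers these counts. The microRNA genes could not be read there, since the table holds none of the 10. No paired analysis was possible because the list pools 1 library of each population. The depth of the pool is unknown.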

Other observations

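Cebpb, which encodes a transcription factor of fat and blood cells and lies 146 kb from Snai1, had an end score of 985. Vis1, a non-coding gene 122 kb past the outer start of Zeb2, had an end score of 69. Zfpm1, which encodes a partner of Gata factors and lies 116 kb from Snai3, had 5 intervals at its ends. The top score of 1475 was at its far end, beyond the reach of 150 kb, and the end nearer Snai3 had a score of 70.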
